A study of Mus musculus with 9 samples.

Results

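The genes described here are the albumin gene cluster, Alb, Afp, Afm and Gc, and the genes of a pair of nuclear factors known to repress Afp, Zhx2 and Zbtb20. They were taken from a list of 6 names, and 5 of them were among the 19938 genes with a probe set of their own. Gc was the exception: the probe annotation used here names no probe set for it, so it is described by its promoter only. RNA came from liver stromal cells of C57BL/6 mice carrying 1 Cxcl12 allele with the red fluorescent reporter DsRed (Cxcl12DsRed/+). Cells positive for DsRed and negative for CD45 and Ter119, surface markers of blood cells, were sorted at E15.5, P5 and P10. All 3 stages share this genotype, strain, tissue and gate, and each has 3 arrays that the labels call independent. Whether an array stands for 1 animal or a pool is not stated, so p-values measure the spread between arrays. The comparisons ask how RNA levels in the sorted cells differed between fetal and postnatal liver.

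Albumin, alpha-fetoprotein, afamin and the vitamin D-binding protein encoded by Gc are related plasma proteins whose genes arose by duplication and still lie near each other. Hepatocytes make all of them, under promoters and enhancers that respond to liver transcription factors such as C/EBP and FOXA proteins. Alpha-fetoprotein is the main plasma protein of the fetus, and its gene is silenced in the liver after birth, whereas albumin stays high for life. Zhx2, found through mouse strains that keep Afp on in adulthood, and the zinc finger factor Zbtb20 are needed for that silencing.

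The promoters of the cluster share a short sequence. In the RefSeq promoter table (build GRCm38.p6), 5 of the 6 listed genes have a window, and Zhx2 has none there. The 250 bases before the annotated start site of the cluster genes are shown 5′ to 3′ on the gene's strand because each holds the letters GTTAATNAT. Capitals mark that match. Positions count back from the annotated start site, with -1 the last base before it. Whether transcription starts at that base was not tested, so the positions depend on the annotation. The windows are chr5:90460620-90460869 (plus strand) for Alb, chr5:90490464-90490713 (plus strand) for Afp, chr5:90518699-90518948 (plus strand) for Afm and chr5:89457899-89458148 (minus strand) for Gc.
Alb: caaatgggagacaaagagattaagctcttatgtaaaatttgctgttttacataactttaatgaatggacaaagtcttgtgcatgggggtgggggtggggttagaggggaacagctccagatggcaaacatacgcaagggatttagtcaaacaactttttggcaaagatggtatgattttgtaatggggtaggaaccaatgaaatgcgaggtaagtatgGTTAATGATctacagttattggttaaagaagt
Afp: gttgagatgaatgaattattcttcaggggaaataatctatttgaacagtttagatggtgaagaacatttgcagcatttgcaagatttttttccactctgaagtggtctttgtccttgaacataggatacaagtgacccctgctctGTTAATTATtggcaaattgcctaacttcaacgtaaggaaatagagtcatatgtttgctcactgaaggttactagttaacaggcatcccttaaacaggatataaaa
Afm: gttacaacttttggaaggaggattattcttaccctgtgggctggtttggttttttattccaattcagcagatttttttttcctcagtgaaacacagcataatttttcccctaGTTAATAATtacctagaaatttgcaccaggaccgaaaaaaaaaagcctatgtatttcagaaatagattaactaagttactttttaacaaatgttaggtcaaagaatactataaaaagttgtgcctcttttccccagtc
Gc: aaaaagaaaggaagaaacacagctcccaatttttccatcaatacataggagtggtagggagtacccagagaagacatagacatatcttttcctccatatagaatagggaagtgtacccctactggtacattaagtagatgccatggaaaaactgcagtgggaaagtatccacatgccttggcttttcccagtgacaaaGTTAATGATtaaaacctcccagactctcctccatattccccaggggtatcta

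The match lay at -32 to -24 in Alb, at -105 to -97 in Afp, at -138 to -130 in Afm and at -52 to -44 in Gc, each time on the strand of the gene. The letters were chosen after these windows had been read, so the match is a description with no test. On both strands, 0.737% of the 32851 windows of this length held it, 242 in all. Among the other genes of the locus, 2 of 6 with a window held it, Albfm1 and Rassf6. Among other abundant secreted proteins of hepatocytes, 1 of 13 genes with a window did, Fga. The Zbtb20 window held no match, which says only that these letters are not in it. The letters TATAAA were found in the Afp window at -7 to -2 and in the Afm window at -30 to -25, and in 12.4% of all windows. The letters CCAAT, on either strand, were in all 4 cluster windows and in 33.8% of all windows, and in Afp they overlap the GTTAATNAT match. The C/EBP palindrome TTGCGCAA was in none of these windows and in 0.164% of all windows.

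Values are log2 signals after robust multi-array averaging (RMA), and a difference of 1 is a doubling. The highest gene value lay between 13.64 and 13.84 on the 9 arrays, percentile 99 between 12.04 and 12.42, and the median of all genes over all arrays at 6.83. The stromal label was checked against 12 stellate and stromal markers. Their summed linear signal was 19346 to 23273 at E15.5, 7111 to 8906 at P5 and 5617 to 6553 at P10. By the test below, 12 of 12 were lower at both postnatal stages than at E15.5, as were 17.7% and 18.6% of all genes. Cxcl12, the gene of the reporter allele, was 0.81 ± 0.17 lower at P5 and 0.85 ± 0.17 lower at P10 (adjusted p = 0.00555 and 0.00381 by limma). Of 9 measured hepatocyte markers, 8 were higher at P5 and 7 higher and 1 lower at P10 than at E15.5, where 35.6% and 38.7% of all genes were called. Their summed signal ran from 20490 to 20863, then 39976 to 43328, then 47016 to 50546. Cyp2e1 and Tdo2, markers of mature hepatocytes, were under percentile 30 on all E15.5 arrays, while Ttr, the transthyretin gene, had a mean of 13.17 there. Genes of hepatocyte plasma proteins thus gave strong signals in RNA sorted as stromal. Ptprc, which encodes CD45, and the myeloid genes Adgre1 and Itgam were under percentile 30 on all 9 arrays. They are 3 of 6 measured blood cell markers, whose summed signal was 421 to 429 at E15.5, 446 to 489 at P5 and 588 to 687 at P10. Alas2, the gene of the first enzyme of heme synthesis in erythroid cells, was 1.12 ± 0.092 higher at P10 than at E15.5 (adjusted p = 2.09e-05 by limma) and 0.90 ± 0.092 higher than at P5 (adjusted p = 0.00166). Among these 6 markers, 1 was called in each of the 3 comparisons between stages, Csf1r higher at P5 than at E15.5 and Alas2 higher at P10 in both others. Of all genes, 35.6% were called at P5 against E15.5, 38.7% at P10 against E15.5 and 5.65% at P10 against P5. Summed signals of 6 endothelial markers overlapped between stages, with 719 to 917, 568 to 2486 and 692 to 1025. The P5 arrays were uneven: all 6 markers were lowest within P5 on array 1, with Lyve1 at 7.06 there and 9.64 and 9.66 on the others. Of these markers only Pecam1 was called, 0.66 ± 0.21 higher at P5 than at E15.5 (adjusted p = 0.0394 by limma), where 35.6% of all genes were called. The cells bearing hepatocyte RNA cannot be identified in bulk samples, and fewer cells of a type and less RNA per cell cannot be told apart. Of 4 measured markers of biliary epithelium, 3 were higher at P5 than at E15.5, as were 17.9% of all genes. From P5 to P10, 2 of them fell, as did 2.89% of all genes, with values given beside Afm. The part of these shifts in the results below was not tested.

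Differences were tested with limma on all genes, with Benjamini-Hochberg adjustment, and an adjusted p under 0.05 counts as a call. Between E15.5 and P5, 2 of the 5 members rose (Afm and Zbtb20) and 1 fell (Afp), where 35.6% of all genes were called, 17.9% higher and 17.7% lower. Between E15.5 and P10, 3 rose (Afm, Zhx2 and Zbtb20) and 1 fell (Afp), where 38.7% of all genes were called, 20.1% higher and 18.6% lower. Between P5 and P10, 0 rose and 2 fell (Afp and Afm), where 5.65% of all genes were called, 2.76% higher and 2.89% lower. At an unadjusted p under 0.05 in limma, the count of members that were higher at P10 than at P5 was also 0. With 5 members and backgrounds this high, the counts against E15.5 say little by themselves. The balance of directions over all genes depended on the scaling: of called genes 50.2% were higher at P5 than at E15.5, and 64.1% after quantile normalisation. At P10 against E15.5 the share was 51.8%, against 69.4% after quantile normalisation and 65.6% after centring on the median of all genes. At P10 against P5 it was 48.8%, against 63.5% after that centring.

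**Figure D1:**
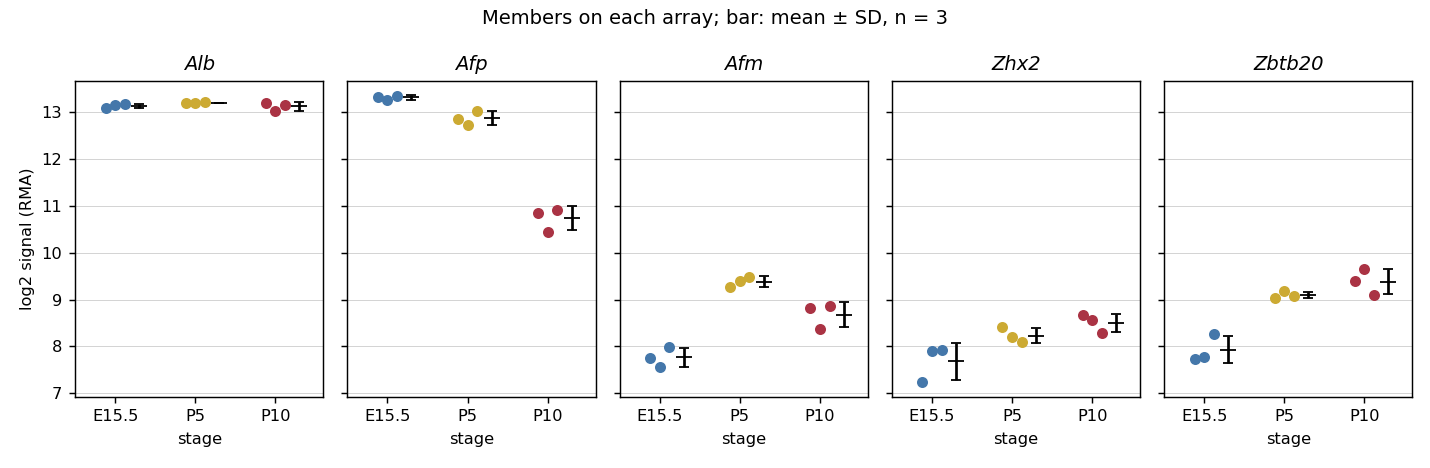
Log2 signal of the 5 measured members (vertical axis) on each of 9 arrays by stage (horizontal axis), 1 point per array, with mean and SD of 3 arrays as black bars. Afp drops from above 13.2 at E15.5 to below 11 at P10, while Alb stays between 13.03 and 13.22 on all arrays.

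Alb, which encodes the main carrier protein of plasma, lay close to the maximum of the arrays from E15.5 to P10. Its log2 signals were 13.10, 13.15 and 13.18 at E15.5, 13.20, 13.20 and 13.22 at P5, and 13.21, 13.03 and 13.15 at P10. The P5 arrays sat just above the E15.5 arrays, the P10 arrays overlapped both, and P10 array 2 was the lowest of all. The difference was 0.06 ± 0.06 (mean of P5 less mean of E15.5, with the SE of the fit over 3 arrays per stage; 95% confidence interval -0.08 to 0.20; adjusted p = 0.482). At P10 against E15.5 it was -0.01 ± 0.06 (-0.15 to 0.13; adjusted p = 0.898), a sign that turned to 0.08 after centring on all genes and 0.07 after centring on ribosomal protein genes. Among 19938 genes the Alb probe set ranked between 23 and 48 from the top on the 9 arrays. This is a rank of signals, not of transcript numbers, since probe sets differ in response.

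A signal so close to the maximum may understate a change. Over the 39 genes with a mean of 13 or more, the median size of the P10 against E15.5 difference was 0.11 and the median SD within a stage 0.047. For the 1344 genes between 10 and 12 these were 0.67 and 0.13. The largest difference was 1.21 in size among the 39 genes and 7.23 among the 1344. Of the 39 genes, 28.2% were called, and of the 1344, 72.4%. A mean of 13 or more requires high signals at every stage, since no gene exceeded 13.84 on any array. Small differences among the 39 genes therefore follow in part from the grouping, and the comparison cannot show whether signals were saturated.

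**Figure D2:**
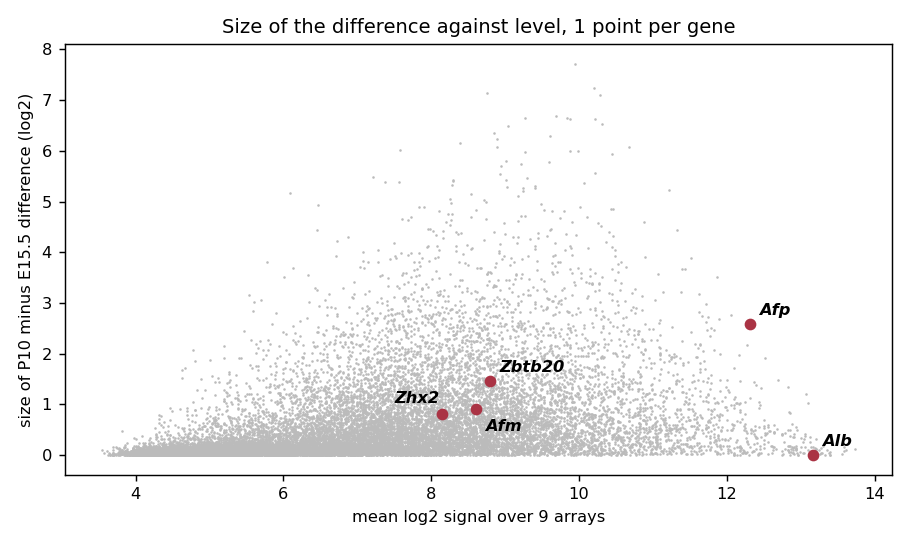
Size of the P10 minus E15.5 difference (vertical axis, log2, sign dropped) against the mean log2 signal over 9 arrays (horizontal axis), 1 grey point per gene, with the members in red. Differences narrow towards the top of the scale, where Alb lies at a mean of 13.16, and Afp stands out at a mean of 12.31 with a difference of 2.58 in size. A mean near the top requires high signals at every stage, so the narrowing by itself does not show saturation.

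Afp, the gene of alpha-fetoprotein, showed the largest measured difference of the members, between E15.5 and P10. Its log2 signals were 13.33, 13.27 and 13.35 at E15.5, 12.86, 12.73 and 13.04 at P5, and 10.86, 10.44 and 10.92 at P10. No stage overlapped another, and the 3 P10 arrays lay far below all others. Afp fell by 2.58 ± 0.13 from E15.5 to P10 (5.97-fold lower, 95% confidence interval of the difference -2.88 to -2.28, adjusted p = 1.22e-06). Of all 19938 genes, 254 had a larger decrease in that comparison. From P5 to P10 it fell by 2.14 ± 0.13 (4.40-fold lower, -2.44 to -1.83, adjusted p = 0.000357), and only 23 genes had a larger decrease.

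The earlier measured step was smaller and less secure. From E15.5 to P5 Afp fell by 0.44 ± 0.13 (1.36-fold lower, -0.74 to -0.14, adjusted p = 0.0304). This call ended without any 1 of the E15.5 arrays (adjusted p from 0.0596 to 0.0858), without P5 array 1 (0.0747) or P5 array 2 (0.0969), and after centring on ribosomal protein genes (-0.37, 0.0618). The Afp probe set ranked between 9 and 18 from the top at E15.5 and between 44 and 104 at P5, so both levels are near the ceiling and their difference may be understated. At P10 it ranked between 971 and 1431, still at percentile 92.8 to 95.1 of all genes. The change from P5 to P10 was more negative than that from E15.5 to P5 by 1.70 ± 0.23 on the log2 scale (difference of the intervals -1.70, adjusted p = 0.00159). In that comparison 2 members were called lower, Afp and Afm, where 16.6% of all genes were called, 7.93% higher and 8.7% lower. The intervals differ in length. Because the E15.5 and P5 signals lay near the top of the scale, the fold changes from them may be understated, and how the decrease divides between the intervals is uncertain.

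Afm, which encodes afamin, a carrier of vitamin E and of Wnt proteins, was highest at P5. Its log2 signals were 7.76, 7.57 and 7.98 at E15.5, 9.26, 9.40 and 9.49 at P5, and 8.82, 8.37 and 8.87 at P10. The stages did not overlap, in the order E15.5, P10, P5. Afm rose by 1.61 ± 0.15 from E15.5 to P5 (3.05-fold, 95% confidence interval 1.26 to 1.96, adjusted p = 6.35e-05) and was 0.91 ± 0.15 higher at P10 than at E15.5 (1.88-fold, 0.56 to 1.26, adjusted p = 0.00138). It fell by 0.70 ± 0.15 from P5 to P10 (1.62-fold, -1.05 to -0.35, adjusted p = 0.0359). That last call was lost in 7 of the 9 fits without 1 array, with differences of -0.79 to -0.54 and adjusted p from 0.0395 to 0.0954 over all 9. It held without E15.5 array 2 or 3. In a fit of the P5 and P10 arrays alone it was lost too (adjusted p = 0.0714). The turn between the intervals was -2.31 ± 0.26 (adjusted p = 0.000654). Markers of biliary epithelium had their highest signals at P5 too. The summed signal of the 4 measured was 446 to 598 at E15.5, 1135 to 1426 at P5 and 617 to 644 at P10, and none was under percentile 30 on all arrays of a stage. Krt19, a keratin gene of bile duct cells, rose by 1.51 ± 0.20 to P5 and fell by 1.71 ± 0.20 to P10 (adjusted p = 0.000482 and 0.00307). Sox9, a transcription factor gene of the same cells, rose by 1.85 ± 0.15 and fell by 0.95 ± 0.15 (adjusted p = 2.26e-05 and 0.0092). Epcam was higher at P5 than at E15.5 (0.67 ± 0.12, adjusted p = 0.00283), and Krt7 was not called in these comparisons. Genes of 16 other abundant secreted proteins of hepatocytes also had their highest summed signal at P5. It was 66611 to 69671 at E15.5, 96894 to 101564 at P5 and 81039 to 95086 at P10. In the difference between intervals 10 of them were lower, as were 8.7% of all genes. None was higher there, also at an unadjusted p under 0.05 in limma, where 7.93% of all genes were called higher. The part of biliary cells or of hepatocytes in the Afm result was not tested.

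P10 array 2 had the lowest P10 signal of Alb, Afp and Afm and the highest of Zbtb20. Without it Afp differed by -2.43 and Afm by 1.07 at P10 against E15.5.

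Zbtb20, the gene of a zinc finger repressor that binds the Afp promoter, was higher at both postnatal stages. Its log2 signals were 7.74, 7.78 and 8.26 at E15.5, 9.04, 9.18 and 9.08 at P5, and 9.40, 9.65 and 9.10 at P10. All postnatal arrays lay above all E15.5 arrays, and P5 and P10 overlapped. Zbtb20 rose by 1.17 ± 0.17 from E15.5 to P5 (2.26-fold, 95% confidence interval 0.79 to 1.56, adjusted p = 0.000741) and by 1.46 ± 0.17 from E15.5 to P10 (2.74-fold, 1.07 to 1.84, adjusted p = 0.000162). Between P5 and P10 the difference was 0.28 ± 0.17 (-0.11 to 0.67, adjusted p = 0.465). The change in this interval less that from E15.5 to P5 was -0.89 ± 0.29 in limma and was not called (adjusted p = 0.0769). The gene has a second probe set, tried after the data had been seen, which gave 0.91 ± 0.17 and 1.37 ± 0.17 against E15.5, both called (adjusted p = 0.00311 and 0.000243). Its log2 signals were 8.83, 8.61 and 8.83 at P5, and 9.22, 9.45 and 8.98 at P10. On that probe set P10 thus lay above P5 without overlap, so a further rise after P5 is uncertain.

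Zhx2, whose product belongs to a small family of zinc finger and homeobox proteins, was higher at P10 than at E15.5. Its log2 signals were 7.23, 7.90 and 7.92 at E15.5, 8.41, 8.21 and 8.09 at P5, and 8.67, 8.56 and 8.28 at P10. E15.5 array 1 stood low within its stage, all postnatal arrays lay above all E15.5 arrays, and P5 and P10 overlapped. Zhx2 rose by 0.82 ± 0.20 from E15.5 to P10 (1.76-fold, 95% confidence interval 0.37 to 1.27, adjusted p = 0.00973). Without E15.5 array 1 this was 0.59 ± 0.13 and still called (adjusted p = 0.0121). At P5 against E15.5 the difference was 0.55 ± 0.20 (0.10 to 1.00, adjusted p = 0.0590), just short of a call. Without E15.5 array 1 it was 0.32 ± 0.13 (adjusted p = 0.121), and it passed after quantile normalisation (0.64, adjusted p = 0.0361). Between P5 and P10 it was 0.27 ± 0.20 (-0.18 to 0.72, adjusted p = 0.572).

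**Figure D3:**
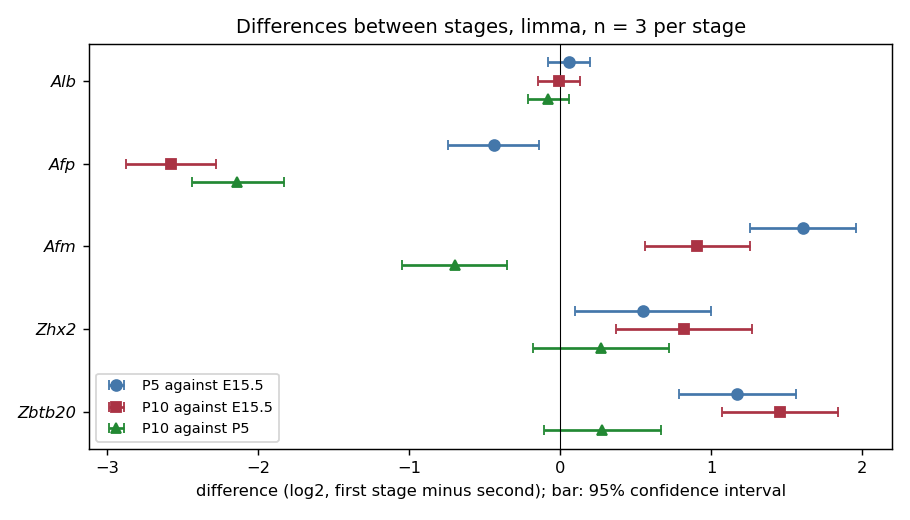
Differences between stages for the 5 measured members (horizontal axis, log2, first stage minus second) from limma, with 95% confidence intervals as bars and n = 3 arrays per stage. The measured Afp decrease is larger between P5 and P10 (-2.14) than between E15.5 and P5 (-0.44). Afm rises between E15.5 and P5 (1.61). Zbtb20 rises by 1.17 in that interval and differs by 0.28 in the next, but its changes in the intervals were not called different.

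Groups did not overlap for 5 of the 5 members at P5 against E15.5 (45.2% of all genes), for 4 at P10 against E15.5 (51.7%, Alb the exception) and for 2 at P10 against P5 (20.2%, Afp and Afm). For the pair of repressors the difference between P5 and P10 was not called on the probe sets used, while Afp fell in that interval. Upper bounds were 0.72 for Zhx2 and 0.67 for Zbtb20. The bound for Zbtb20 does not cover its second probe set, on which P5 and P10 did not overlap. To set the repressors against each other, the Zbtb20 value less the Zhx2 value was taken on each array. It changed by 0.64 from E15.5 to P10 (SD 0.19 at P10 and 0.33 at E15.5) and by 0.02 from P5 to P10. The 2-sided exact permutation test of 3 against 3 arrays cannot go below 0.1, which the first reached (p = 0.1) and the second did not (p = 1.0). Adjusted over 9 such comparisons, the exact permutation p of 0.1 became 0.112. The other 6 set Afp or Afm against Alb and are not given, because Alb lay close to the maximum.

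The genes around the cluster did not move as a block. In RefSeq order the protein-coding genes run Slc4a4, Gc, Npffr2, Adamts3, Cox18, Ankrd17, Alb, Afp, Afm, Albfm1 and Rassf6. Of the 7 neighbours that are not members, 5 were called at P5 against E15.5 (3 up, 2 down) and 4 at P10 (3 up, 1 down), where 35.6% and 38.7% of all genes were called. Their median difference was 0.09 and 0.72, against 0.029 and 0.024 over all genes. Albfm1, an albumin-family gene next to Afm, had log2 signals of 5.57, 5.12 and 5.46 at E15.5, 7.74, 7.10 and 7.61 at P5, and 8.54, 8.60 and 8.70 at P10. Each stage lay wholly above the one before. It rose by 2.10 ± 0.17 to P5 and by 3.23 ± 0.17 to P10 (adjusted p = 1.69e-06), and from P5 to P10 by 1.13 ± 0.17 (adjusted p = 0.00926), in the interval in which Afp and Afm fell. Its E15.5 signals were under percentile 30, so the rise may be understated.

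Beyond the albumin family, Slc4a4, a bicarbonate transporter gene beside Gc, rose by 1.76 ± 0.15 to P5 and was 1.31 ± 0.15 above E15.5 at P10. Adamts3, a procollagen-processing protease gene, fell by 1.24 ± 0.12 and 1.22 ± 0.12 at P5 and P10. Ankrd17, the neighbour before Alb, fell by 0.55 ± 0.10 at P5, and its P10 difference of -0.28 ± 0.10 was not called (adjusted p = 0.0573). Cox18, a mitochondrial assembly gene, differed by 0.72 ± 0.29 at P10 (adjusted p = 0.0898).

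**Figure D4:**
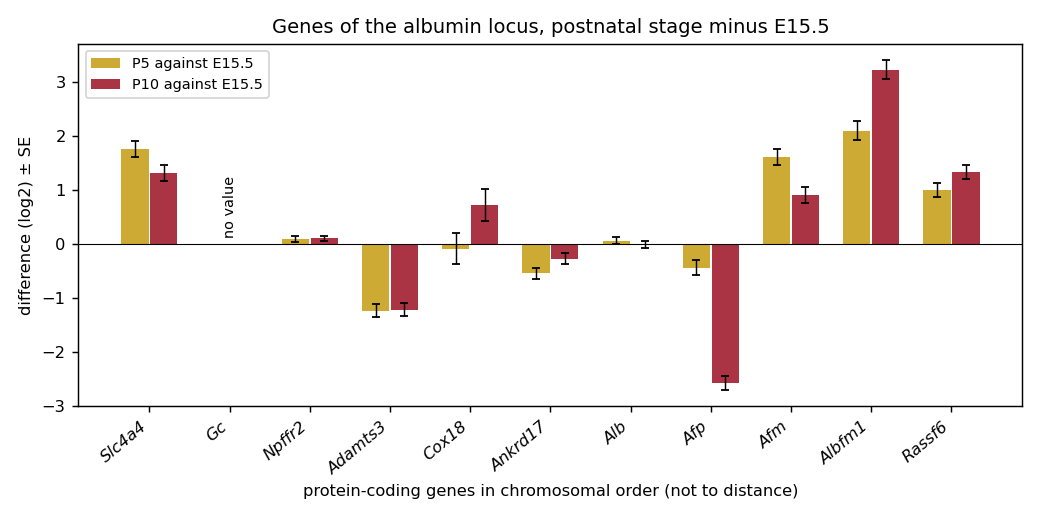
Differences of P5 and P10 from E15.5 (vertical axis, log2, bars from 0 with SE) for protein-coding genes of the albumin locus in chromosomal order (horizontal axis, not to distance). Alb stays at 0.06 and -0.01 between Ankrd17 and Afp, Afp falls to -2.58, and Albfm1 rises to 3.23 at P10.

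Most measured transcription factors known to act on these genes or on liver genes in general were called. Of 23 measured, 15 were higher and 7 lower at P5, and 16 higher and 7 lower at P10 than at E15.5, with median differences of 0.71 and 1.06. Of all genes, 17.9% were higher and 17.7% lower at P5, and 20.1% higher and 18.6% lower at P10, with medians of 0.029 and 0.024. Between P5 and P10, 2 were higher, 1 lower and 20 not called, where 5.65% of all genes were called. Cebpa, the gene of an activator of the albumin promoter, rose by 2.15 ± 0.066 to P5 and was 2.08 ± 0.066 above E15.5 at P10. Hlf, of the PAR-bZIP family that binds the albumin D site, rose by 2.25 ± 0.086 and 2.50 ± 0.086. Gata6, a zinc finger factor also expressed in mesenchyme, fell by 1.99 ± 0.079 from E15.5 to P10, and from P5 to P10 by 0.48 ± 0.079 (adjusted p = 0.0123). Nr2f2, an orphan receptor gene that is likewise mesenchymal, fell by 1.98 ± 0.11. The smallest called changes included Zfhx3, whose product binds an AT-rich motif of the Afp enhancer (-0.36 ± 0.10, adjusted p = 0.0234), and Nfia (0.46 ± 0.14, adjusted p = 0.0272).

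Of the 3 relatives of Zhx2 measured, 2 rose at both postnatal stages against E15.5, where 17.9% of all genes rose at P5 and 20.1% at P10. Zhx3 was 1.75 ± 0.20 higher at P10 (adjusted p = 0.000171), and its log2 signals of 9.16, 9.25 and 9.03 at P10 did not overlap the 7.14, 7.42 and 7.63 at E15.5. Zhx1 was 0.35 ± 0.11 higher (adjusted p = 0.0288). The third, Homez, was not called.

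Of 6 further genes reported elsewhere to depend on Zhx2 in mouse liver, 3 have a value here. Gpc3, the gene of the fetal proteoglycan glypican-3, had log2 signals of 12.35, 12.40 and 12.22 at E15.5, 10.86, 10.78 and 10.83 at P5, and 8.45, 8.63 and 8.50 at P10. It fell at each step, by 1.50 ± 0.072 to P5 and by 2.30 ± 0.072 from P5 to P10 (adjusted p = 1.34e-05), or by 3.80 ± 0.072 in all. Lpl, the lipoprotein lipase gene, differed by -0.09 ± 0.15 at P10 against E15.5 (adjusted p = 0.700), and the third gene, Elovl3, was not called either. Stromal cells can also express Gpc3 and Lpl, and which cells carried them was not tested.

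Among 6 measured genes known as fetal in liver, Gpc3 included, 0 rose and 5 fell from E15.5 to P10, with a median of -1.49 (0 higher in limma at an unadjusted p under 0.05 as well). Of all genes 20.1% rose and 18.6% fell in that comparison, with a median of 0.024. From P5 to P10, 3 fell, where 2.89% of all genes did. Dlk1, a Notch-family ligand gene of hepatoblasts, fell by 2.83 ± 0.14 to P5 and by 1.84 ± 0.14 from P5 to P10 (adjusted p = 0.000594). Which of the sorted cells carried Dlk1 was not tested, so its fall cannot be assigned to hepatoblasts. Igf2, the fetal growth factor gene, fell by 0.27 ± 0.062 from E15.5 to P10 and by 0.26 ± 0.062 from P5 to P10 (adjusted p = 0.00807 and 0.0480), close to the top of the scale with an E15.5 mean of 12.86. Igf2bp3, which encodes an RNA-binding protein, differed by 0.05 ± 0.088 (adjusted p = 0.695).

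Other abundant secreted proteins of hepatocytes give a frame for the cluster. Of 16 measured genes, 11 were higher and 0 lower at P5, and 7 higher and 2 lower at P10 than at E15.5, with medians of 0.51 and 0.22. Over all genes 17.9% were higher and 17.7% lower at P5, and 20.1% higher and 18.6% lower at P10, with medians of 0.029 and 0.024. The count of 0 lower at P5 was the same in limma at an unadjusted p under 0.05. From P5 to P10, 1 was higher and 6 were lower (2.76% and 2.89% of all genes), with a median of -0.31 against -0.002 over all genes, and Afm went the same way in that interval. Hrg, which encodes histidine-rich glycoprotein, was 5.78 ± 0.13 above E15.5 at P10 and fell by 0.66 ± 0.13 from P5 to P10 (adjusted p = 0.0290). Fetub, the fetuin-B gene, was 5.74 ± 0.11 above E15.5 and fell by 0.49 ± 0.11 (adjusted p = 0.0377). The E15.5 signals of Fetub were under percentile 30, and so were those of Hrg on E15.5 arrays 2 and 3 (5.24 and 5.53). The sizes of the differences of both genes from E15.5 are thus uncertain and may be understated. Fga, a fibrinogen chain gene, and Ambp, the gene of alpha-1-microglobulin and bikunin, were below E15.5 at P10 (-0.58 ± 0.14 and -0.40 ± 0.086), and from P5 they fell by 0.74 ± 0.14 and 0.43 ± 0.086. Fgb, another fibrinogen chain gene (-0.04 ± 0.092), and Rbp4, the retinol carrier gene (0.11 ± 0.069), were not called at P10 against E15.5.

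To find the genes with the most similar course, each gene was centred on its own mean over the 9 arrays and compared with a member by the root mean square distance in log2 units. Since the 9 arrays fall into 3 stages, the distance reflects mainly the stage means. Closest to Afp were Cyp51 at 0.24, Sulf1 at 0.27, Malat1 and Timp2 at 0.29 and Sqle at 0.30. Cyp51 and Sqle encode enzymes of cholesterol synthesis, and Sulf1 and Timp2 encode a heparan sulfatase and a protease inhibitor of the matrix. Cyp51 had mean log2 signals of 9.15, 8.36 and 6.60 at E15.5, P5 and P10, and Afp had 13.32, 12.88 and 10.74.

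The genes nearest to Afm were Itih4 (0.13), Chp2 (0.19), Slc27a2 and 1300017J02Rik (both 0.20) and Crp (0.21). Itih4 and Crp encode plasma proteins of the acute phase, and Slc27a2 a fatty acid transporter of hepatocytes. Itih4 had means of 9.58, 11.42 and 10.64, with the highest at P5 as for Afm. Nearest to Zbtb20 were Chrac1 and Pbld2 (both 0.14), Csrp3 and Stat3 (both 0.15) and Dusp16 (0.16). Nearest to Zhx2 were C1qtnf4 and Sfxn2 (both 0.16) and D2hgdh, Anxa8 and Tmco4 (each 0.17). The stage means of Alb spanned only 0.08, and no such genes were sought for it.

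**Figure D5:**
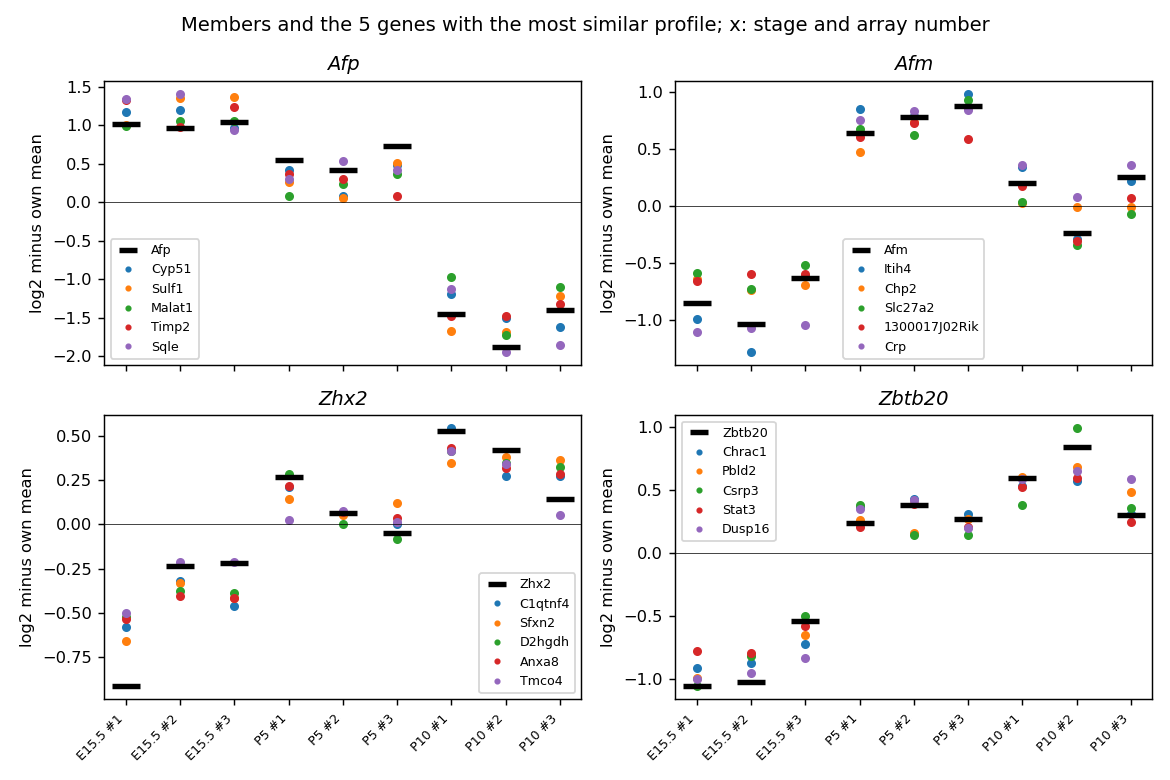
Log2 signal minus the gene's own mean over 9 arrays (vertical axis) on each array (horizontal axis, stage and array number) for 4 members, as black dashes, and for the 5 genes with the smallest distance, as coloured points. The Afp panel steps down between P5 and P10, the Afm panel peaks at P5, and the Zhx2 and Zbtb20 panels step up after E15.5.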

How the data were processed

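RNA of 9 arrays, 3 per stage, was analysed. Per the submitters' processing notes, the authors used RMA, Affymetrix Expression Console and Transcriptome Analysis Console 2.0, and deposited log2 signals per probe set, from 3.21 to 14.03. The array medians were 6.22 to 6.45, and the number of arrays limits the precision. Genome build and array dates are not given in the sources used here.

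Of 35556 probe sets, 21789 had 1 gene symbol, 1621 several, and 12146 were not listed. Symbols were updated by Entrez identifier (21698 matched), and the probe set with the highest mean represented each of 19938 genes. Stage was the only term in limma 3.58.1, run in R 4.3.3 and tested on simulated data, with degrees of freedom of 6 (residual) and 2.22 (prior). No filter was applied. Intervals are 95% confidence intervals. Residuals of same-numbered arrays showed no common deviation (r from -0.079 to 0.069), and no pairing was used.

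The members and lists were chosen with earlier results of these data known. From each list the text names up to 2 genes with the smallest F-test p in each direction and 2 with the smallest difference, and per member the 5 most similar genes; Elovl3, Homez, Tdo2, Ptprc, Adgre1, Itgam and Npffr2 are named outside that rule, after their values were seen. Marker lists are given mainly as counts. Alternatives were 3 scalings, a filter and a floor at percentile 30, the mean of probe sets, 2 variance models, the replicate number as a block, a sex signal as covariate, only the stages compared, and leaving out each array. Figures used matplotlib 3.10.9.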

Additional observations from a re-analysis of the deposited data

How the results depend on the processing

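Of the 11 called differences of members, all kept their direction in the 220 refits tried, and 206 of these refits kept the call. Many of these refits could not alter a difference, so they tested the call but not the direction. They were the variance models, the replicate block, the filter and floor at percentile 30, and fits of only the stages compared. So were the mean of probe sets for members with a single probe set, and leaving out an array of a stage not compared. Apart from fits without 1 array, calls were lost for Afp at P5 against E15.5 after centring on ribosomal protein genes (-0.37) and for Afm at P10 against P5 with only these stages (-0.70). A call was gained for Zhx2 at P5 against E15.5 after quantile normalisation (0.64), centring on ribosomal protein genes (0.63) and the filter at percentile 30 (0.55), and for Zbtb20 in the difference between intervals after quantile normalisation (-1.05). The Alb difference at P10 against E15.5 changed sign after centring on all genes (0.08) or ribosomal protein genes (0.07). Uncalled differences at P10 against E15.5 that changed sign were those of Lpl (0.00) and Fgb (0.06) after centring on all genes, Fgb (0.04) after centring on ribosomal protein genes, and Igf2bp3 (-0.15) and B2m (-0.07) after quantile normalisation. Other results were refitted for genes named by the rule outside the marker lists, and for the list counts. Fits without 1 array aside, 986 of these refits kept the verdict. Calls of named genes were lost in 23 refits and gained in 8. List counts changed beyond a fixed ratio in 32. Genes called at P10 against P5 numbered 1126, and 709 in a fit of these stages alone. The cause of these changes was not tested. The median of all genes at P10 against E15.5 moved from 0.024 to 0.15 after quantile normalisation, 0.12 after centring on all genes and 0.105 after centring on ribosomal protein genes.

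Without 1 array, differences at P5 against E15.5 ran from 0.04 to 0.08 for Alb, -0.52 to -0.37 for Afp, 1.51 to 1.71 for Afm, 0.32 to 0.67 for Zhx2 (called without E15.5 array 3, adjusted p = 0.05) and 1.08 to 1.34 for Zbtb20. At P10 against E15.5 they ran from -0.05 to 0.03, -2.67 to -2.43, 0.81 to 1.07, 0.59 to 0.94 and 1.32 to 1.62. At P10 against P5 they ran from -0.12 to -0.03, -2.23 to -1.99, -0.79 to -0.54, 0.19 to 0.38 and 0.15 to 0.42. Differences between intervals ran from -0.18 to -0.09, -1.84 to -1.54, -2.43 to -2.15, -0.43 to -0.05 and -1.06 to -0.75 (Zbtb20 called without E15.5 array 3). Without 1 array, the uncalled P10 against E15.5 differences of B2m and Fgb ran from -0.02 to 0.10 and from -0.11 to 0.03. Genes called numbered 6194 to 7174 (P5 against E15.5), 6754 to 7895 (P10 against E15.5), 586 to 1385 (P10 against P5; 747 without P5 array 2, 586 without P10 array 2 and 730 without P10 array 3) and 2549 to 3453 (between intervals). With the replicate number as a block, 6886, 7440, 893 and 3194 genes were called, and no call of a member changed. Under that block, Afp differed by -0.44, -2.58 and -2.14, values that the block could not alter. The sex signal, present on 4 arrays, changed no member's call as a covariate. Signals near the maximum limit what can be read from Alb, and from Afp at E15.5 and P5.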

Other observations

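Genes that work with the carrier proteins were also measured. Of 9 with a value among those for albumin recycling, vitamin D handling and actin clearance, 3 were higher and 0 lower at P5, and 3 higher and 1 lower at P10 than at E15.5, with medians of 0.15 and 0.05. At P5, 0 were lower in limma at an unadjusted p under 0.05 too. Of all genes, 35.6% and 38.7% were called in these comparisons, with medians of 0.029 and 0.024. Rxra, which encodes the partner of the vitamin D receptor and of many other nuclear receptors, was 1.20 ± 0.080 higher at P10 (adjusted p = 5.99e-06 by limma). Cyp27a1, whose enzyme hydroxylates vitamin D and bile acid precursors, was 1.41 ± 0.19 higher (adjusted p = 0.000383). Gsn, the gene of gelsolin, which shares the clearance of plasma actin with the protein of Gc, fell by 0.80 ± 0.17 (adjusted p = 0.00459). B2m, the light chain of the albumin-recycling receptor, differed by 0.04 ± 0.093 and was not called (adjusted p = 0.781).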
